A study of Mus musculus with 6 samples.

Results

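The 10 genes described here encode the interleukin-1 and interleukin-36 cytokine family: the IL-1 branch agonists Il1a, Il1b, Il18 and Il33, the IL-36 branch agonists Il1f6, Il1f8 and Il1f9, and the antagonists Il1rn, Il1f5 and Il1f10. They were taken by gene symbol, and each was measured by 1 probe set, so that the family made up 10 of 30063 genes tested. The proteins are also called IL-36 alpha (Il1f6), IL-36 beta (Il1f8), IL-36 gamma (Il1f9), IL-36 receptor antagonist (Il1f5) and IL-38 (Il1f10). All levels are log2 signals per probe set, and all differences are Rptor cKO minus wild type.

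RNA from the epidermis of E18.5 mouse embryos was measured on 6 arrays. The tested embryos were 3 conditional knockouts (Rptor cKO, arrays 1 to 3) for Rptor, the gene of the mTORC1 subunit Raptor, and the controls were 3 wild-type embryos (arrays 4 to 6) from the same litters. The sheets were lifted from the dermis with ammonium thiocyanate, and no embryo was given an agent. The driver of the deletion, the deleted exons, the strain and the number of litters are not stated in the labels. The series names the 3 samples of each group biological replicates.

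IL-1 family cytokines act on receptors that pair with the shared chain IL1RAP (IL-18 has a pair of its own) and signal through MYD88, IRAK kinases and TRAF6 to NF-kB and MAP kinases. Keratinocytes store IL-1 alpha and the IL-36 cytokines and release them on damage, so that the family serves as an alarm of the epidermis, whereas IL-1 beta and IL-18 are cut to their active form by caspase-1 in the inflammasome. Il1rn and Il1f5 encode proteins that occupy the IL-1 and IL-36 receptors without signalling. Il1f10 encodes a less well understood antagonist. Il33 encodes a nuclear cytokine of barrier tissues that acts on the receptor ST2.

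The genes lie close together. In mm10 (RefSeq GRCm38.p6), Il1f8, Il1f9, Il1f6, Il1f5, Il1f10 and Il1rn follow each other on chromosome 2 within 198.3 kb, from 24153172 to 24351491. Il1a (129299609 to 129310186) and Il1b (129364569 to 129371164) lie 104.9 Mb away on the same chromosome. Il18 is on chromosome 9 (50554700 to 50581841) and Il33 on chromosome 19 (29925113 to 29960718).

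Promoter windows of 300 bases around RefSeq start sites of GRCm38.p6 were found for 9 of the 10 genes, with 13 windows in all, and not for Il1f6. The windows below are shown for Il1f8, the gene with the largest difference, for Il1rn and Il1a, which with Il1f8 hold an AP-1 motif, and for Il33, the one gene that was higher in Rptor cKO past the threshold. Capitals mark matches to any of 7 motifs, searched on both strands and chosen with the values known. The AP-1 motif was searched as TGANTCA. The E-box bound by MiT/TFE factors was searched as CACGTG. The NF-kB motif was searched as GGG, any 3 bases and TTCC. The C/EBP motif was searched as TTGCNNAA. The STAT motif was searched as TTCNNNGAA. The Grainyhead-like motif was AACNGGTT. The TATA box was TATAAA. The matches printed here do not overlap each other.
Il1f8, chr2:24152922-24153221, plus strand: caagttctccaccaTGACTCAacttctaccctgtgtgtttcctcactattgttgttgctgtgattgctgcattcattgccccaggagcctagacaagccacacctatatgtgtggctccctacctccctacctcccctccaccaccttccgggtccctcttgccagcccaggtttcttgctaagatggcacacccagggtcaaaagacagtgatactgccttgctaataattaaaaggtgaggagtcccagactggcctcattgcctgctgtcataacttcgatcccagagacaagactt
Il1rn, chr2:24336610-24336909, plus strand: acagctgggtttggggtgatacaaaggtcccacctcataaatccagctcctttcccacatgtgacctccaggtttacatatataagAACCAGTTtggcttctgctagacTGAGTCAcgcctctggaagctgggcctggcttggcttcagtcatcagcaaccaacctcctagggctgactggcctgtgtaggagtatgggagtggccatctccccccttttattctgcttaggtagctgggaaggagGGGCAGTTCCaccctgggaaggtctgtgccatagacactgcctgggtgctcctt
Il1a, chr2:129309923-129310222, minus strand: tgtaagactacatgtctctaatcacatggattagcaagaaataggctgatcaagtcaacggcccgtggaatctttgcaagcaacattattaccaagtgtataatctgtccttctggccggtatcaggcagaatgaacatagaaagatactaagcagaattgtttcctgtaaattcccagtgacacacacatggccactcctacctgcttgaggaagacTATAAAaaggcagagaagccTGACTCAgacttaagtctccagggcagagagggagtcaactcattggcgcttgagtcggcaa
Il33, chr19:29924863-29925162, plus strand: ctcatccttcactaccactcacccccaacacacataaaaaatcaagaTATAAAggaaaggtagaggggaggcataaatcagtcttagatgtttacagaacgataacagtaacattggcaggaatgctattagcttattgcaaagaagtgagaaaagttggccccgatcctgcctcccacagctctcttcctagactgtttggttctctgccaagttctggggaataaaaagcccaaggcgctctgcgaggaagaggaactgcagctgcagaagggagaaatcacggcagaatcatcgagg
The AP-1 motif was in 3 of the 13 windows, of the genes Il1a, Il1f8 and Il1rn, and in 7.81% of all 32851 promoter windows. CACGTG was in no window of the 9 genes and in 7.15% of all windows. The NF-kB motif was in 3 windows of 1 gene, Il1rn, against 5.56% of all windows, and the 2 downstream Il1rn windows overlap and share 1 match. TATAAA, read on either strand, was in 6 of the 13 windows, of the 5 genes Il1a, Il1b, Il18, Il1rn and Il33, against 13.6% of all windows. It began at position -32 from the start site of Il1a and at -31 from that of Il1b. For Il33 it began at -203 in the window shown and at -29 in the window not shown. The Il18 match at -175 and the Il1rn match at 15 were on the opposite strand to the gene. The C/EBP motif was in windows of Il1f5 and Il33 (10.8% of all windows), the STAT motif in windows of Il1f5 and Il1f9 (8.30%), and the Grainyhead-like motif in the Il1rn window shown (2.09%). The Il1f8, Il1rn and Il1a matches to AP-1 began at positions -236, -141 and -12 from the start site. A match is a string of letters in these windows and was not tested for binding.

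The median log2 signal was 4.14 to 4.21 on Rptor cKO arrays and 4.06 to 4.14 on wild-type arrays. The 5222 negative controls had a median of 4.11 on Rptor cKO array 1 and of 3.81 to 3.87 on the other arrays. The median of each array marks what is dim on it. On Rptor cKO array 1, Il1a, Il1b, Il18 and Il33 read 3.91 to 4.02, under its own median but above those of the other arrays. By Xist and Y-linked genes the Rptor cKO embryos were 2 females (arrays 1 and 3) and 1 male (array 2), and the 3 wild-type embryos were males. Rptor itself averaged 6.69 ± 0.14 on the 3 Rptor cKO arrays and 7.15 ± 0.27 on the 3 wild-type arrays (SD), without overlap (difference -0.46, limma adjusted p = 0.0988). The 12 keratinocyte markers all lay above the negative control median on every array. They were not unchanged: at an adjusted p of 0.05 in limma 2 were higher, 3 were lower and 7 did not pass. Their differences ran from -2.31 (Krt15) to 0.98 (Itgb4). Of 30063 genes, 9.60% passed an adjusted p of 0.05 in limma, 3.64% as higher and 5.96% as lower, so that 62.1% of called genes were lower (75.7% with array medians subtracted). In epidermal sheets fewer cells of a kind and less RNA per cell cannot be told apart.

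Of the 10 family genes, 4 fell (Il1f8, Il1f5, Il18 and Il1rn), 1 rose (Il33) and 5 did not pass the test. The share called over all genes was 5.96% lower and 3.64% higher. The groups did not overlap for 8 of the 10, 7 of them lower in Rptor cKO, against 29.0% of all genes (12.5% lower). The median difference of the 10 was -1.35, and that of all genes was 0.05. Il1a, Il1f9 and Il1f10 were also lower on every Rptor cKO array than on any wild-type array, but their adjusted p lay between 0.0536 and 0.0982. These calls rest on few arrays: with Rptor cKO array 2 left out, none of the 10 passed, although 8 of 10 differences were still below 0. Set alone against the 3 wild-type males, array 2 gave 3 lower genes, Il18, Il1f8 and Il1rn, with the spread taken from the wild-type arrays. With all 6 arrays and embryo sex as an added term, the differences were the same and none of the 10 passed, with adjusted p of 0.0892 for Il1f8, 0.131 for Il1rn and 0.149 for Il18.

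**Figure D1:**
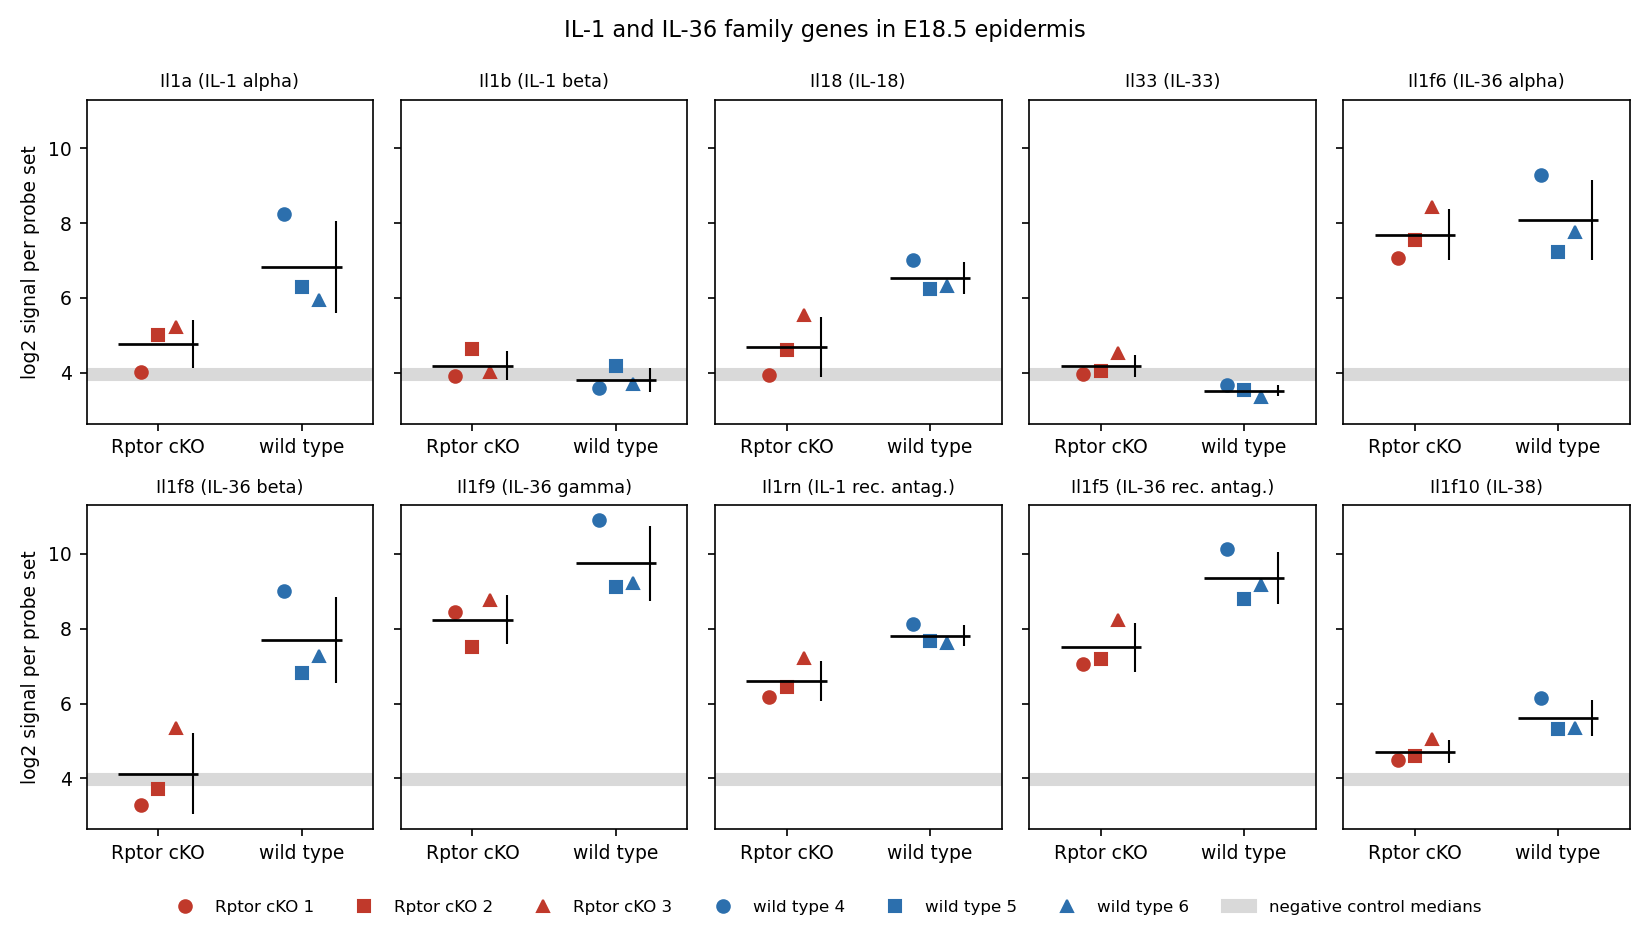
Log2 signal per probe set of the 10 family genes, 1 point per array, with Rptor cKO (red) left of wild type (blue), the mean as a horizontal line and 1 SD as a vertical line (n = 3 each). The grey band spans the negative control medians of the 6 arrays, 3.81 to 4.11; the groups overlap for Il1b and Il1f6, and Il33 is the gene that lies higher in Rptor cKO without overlap.

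In the IL-36 branch, Il1f8 had the largest difference of the family. It read 3.30, 3.71 and 5.35 on Rptor cKO arrays 1 to 3, against 9.0, 6.81 and 7.28 on wild-type arrays 4 to 6. Every Rptor cKO array lay below every wild-type array, and Rptor cKO arrays 1 and 2 lay under the negative control median. The difference was -3.58 (SE 0.64, 95% interval -5.04 to -2.12, adjusted p = 0.0121), or 12-fold, and 9.58-fold with values raised to the negative control median. It ranked 9 among the falls of all 30063 genes.

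Il1f9, whose product IL-36 gamma is abundant in psoriatic skin, read 8.45, 7.52 and 8.77 in Rptor cKO, against 10.91, 9.12 and 9.22 in wild type. The groups did not overlap, but wild-type array 4 stood well above the other two. The difference of -1.5 (SE 0.48, 95% interval -2.61 to -0.40) did not pass the test (adjusted p = 0.0982), and without wild-type array 4 it was -0.93. Il1f6, the gene of IL-36 alpha, read 7.08, 7.56 and 8.42 in Rptor cKO, against 9.28, 7.21 and 7.76 in wild type, so that the groups overlapped. Its difference was -0.40 (SE 0.52, 95% interval -1.58 to 0.78, adjusted p = 0.705), and without wild-type array 4 it was 0.20.

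Of the 3 antagonists 2 fell and 1 did not pass. Il1f5, the antagonist of the IL-36 receptor, read 7.05, 7.20 and 8.24 in Rptor cKO, against 10.14, 8.78 and 9.16 in wild type. No arrays overlapped, and Il1f5 fell 3.64-fold (-1.86, SE 0.39, adjusted p = 0.0221). Leaving out Rptor cKO array 1 gave an adjusted p of 0.0629, and leaving out wild-type array 6 gave 0.0612. Il1rn, the antagonist of the IL-1 receptor, read 6.17, 6.44 and 7.21 in Rptor cKO, against 8.13, 7.67 and 7.62 in wild type. It fell 2.30-fold, again without overlap (-1.20, SE 0.26, adjusted p = 0.0239). The Il1rn call was lost without Rptor cKO array 1, wild-type array 4 or wild-type array 6 as well, with adjusted p of 0.0543 to 0.0574. Il1f10 read 4.49, 4.60 and 5.05 in Rptor cKO, against 6.15, 5.32 and 5.35 in wild type. It was lower on each Rptor cKO array, by 0.89 in the mean, but missed the threshold (-0.89, SE 0.24, 95% interval -1.44 to -0.35, adjusted p = 0.0536).

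In the IL-1 branch 1 gene fell, 1 rose and 2 did not pass. Il18, whose product drives interferon gamma in T and NK cells, read 3.94, 4.60 and 5.54 in Rptor cKO, against 7.01, 6.25 and 6.32 in wild type. It fell 3.55-fold (-1.83, SE 0.37, adjusted p = 0.0200), and Rptor cKO array 1 lay under the negative control median. Without wild-type array 6 the Il18 difference had an adjusted p of 0.0561. Il1a, the alarm cytokine stored in keratinocytes, read 4.02, 5.02 and 5.23 in Rptor cKO, against 8.24, 6.29 and 5.94 in wild type. Its value on Rptor cKO array 1 lay under the negative control median. The groups did not overlap, yet the wild-type SD of 1.24 was wide and the difference of -2.07 (SE 0.56, 95% interval -3.36 to -0.77) had an adjusted p of 0.0577. Without wild-type array 4 the difference was -1.36 with an adjusted p of 0.0406.

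Il1b and Il33 were dim. Il1b read 3.91, 4.62 and 4.03 in Rptor cKO, against 3.58, 4.18 and 3.69 in wild type, with 1 Rptor cKO array and 2 wild-type arrays under the negative control median. Its groups overlapped (0.37, SE 0.22, 95% interval -0.12 to 0.87, adjusted p = 0.348). Il1bos, a non-coding RNA whose gene overlaps the 5′ end of Il1b on the other strand, read 3.30 to 3.56 in Rptor cKO and 3.24 to 3.51 in wild type, under the negative control median on every array. Il33 read 3.96, 4.05 and 4.52 in Rptor cKO, against 3.67, 3.55 and 3.35 in wild type. It rose by 0.66 (SE 0.16, 95% interval 0.29 to 1.02, adjusted p = 0.0380). The 3 wild-type arrays and Rptor cKO array 1 lay under the negative control median, so the size of the rise is not firm. Setting the wild-type values alone to that median gave a mean rise of 1.26-fold, a point estimate and not a lower limit. The rise did not pass once all dim values were set to that median (adjusted p = 0.0864).

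**Figure D2:**
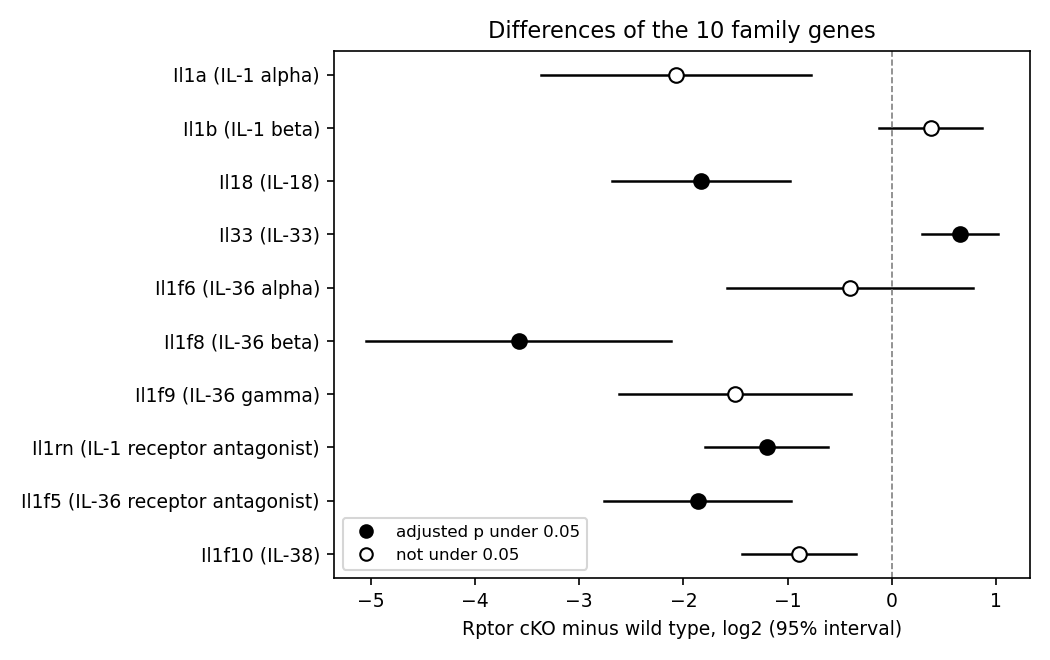
Log2 difference (Rptor cKO minus wild type) of each family gene with its 95% interval from limma (3 arrays a group); filled points have an adjusted p under 0.05. Il1f8 lies farthest to the left at -3.58, Il1f6 and Il1b have intervals that cross 0, and Il33 is the filled point right of 0.

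Agonists and antagonists of the same receptor were set against each other array by array, a comparison added after the values were seen, with 4 pairs tested. The log2 signal of Il1f8 minus that of Il1f5 was -3.76, -3.50 and -2.90 in Rptor cKO, against -1.14, -1.97 and -1.88 in wild type. These values separated the groups (difference -1.72). Since Il1f8 lay under the negative control median on Rptor cKO arrays 1 and 2, the first 2 values are not firm; set to that median, Il1f8 itself differed by -3.26 and not -3.58. The log2 signal of Il1f6 minus that of Il1f5 was 0.03, 0.35 and 0.18 in Rptor cKO, against -0.86, -1.57 and -1.40 in wild type, the other way round (difference 1.46). Both pairs separated the groups without overlap, with p = 0.10 in a two-sided exact permutation test, the smallest that 3 against 3 arrays can give, and 0.20 adjusted over the 4 pairs. Il1f9 minus Il1f5 (0.36, exact p = 0.50) and Il1a minus Il1rn (-0.87, exact p = 0.20) overlapped between the groups. The 3 pairs with Il1f5 share its values.

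Arrays of 1 group also differed from each other in a common way. Of the 10 family genes, 9 were highest on Rptor cKO array 3 among the Rptor cKO arrays, and 9 were highest on wild-type array 4 among the wild-type arrays. Over all genes these shares were 29.5% and 33.9%. Rptor cKO array 1 was the lowest of its group for 9 genes, against 41.0% of all genes. The exceptions were Il1b, which was highest on Rptor cKO array 2 and wild-type array 5, and Il1f9, which was lowest on Rptor cKO array 2.

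Markers of the differentiated layers were low and high on the same arrays as the IL-36 agonists and the antagonists. Each gene was centred on its own mean over the 6 arrays, and these centred values were averaged over a group of genes. The mean of the 3 IL-36 agonists was -1.32, -1.34 and -0.09 in Rptor cKO, against 2.13, 0.12 and 0.49 in wild type. The mean of the 4 IL-1 branch agonists was -0.85, -0.24 and 0.02 in Rptor cKO, against 0.81, 0.25 and 0.01 in wild type, so that the groups overlapped. Within that branch Il1b and Il33 had differences above 0. The mean of 17 granular and cornified layer markers was -1.44, -1.32 and -0.15 in Rptor cKO, against 1.48, 0.65 and 0.79 in wild type. The mean of 11 spinous layer markers was -1.20, -1.40 and -0.22 in Rptor cKO, against 1.11, 0.76 and 0.95 in wild type. In each of these 4 groups of genes Rptor cKO array 3 was the highest of the Rptor cKO arrays and wild-type array 4 the highest of the wild-type arrays. Of the spinous markers 11 of 11 fell, with a median of -2.07, and of the granular and cornified markers 13 of 17 fell, and the median of the 17 was -1.85 (without Rptor cKO array 2, 6 spinous and 4 granular and cornified markers fell). The part of layer makeup in the cytokine values was not tested.

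**Figure D3:**
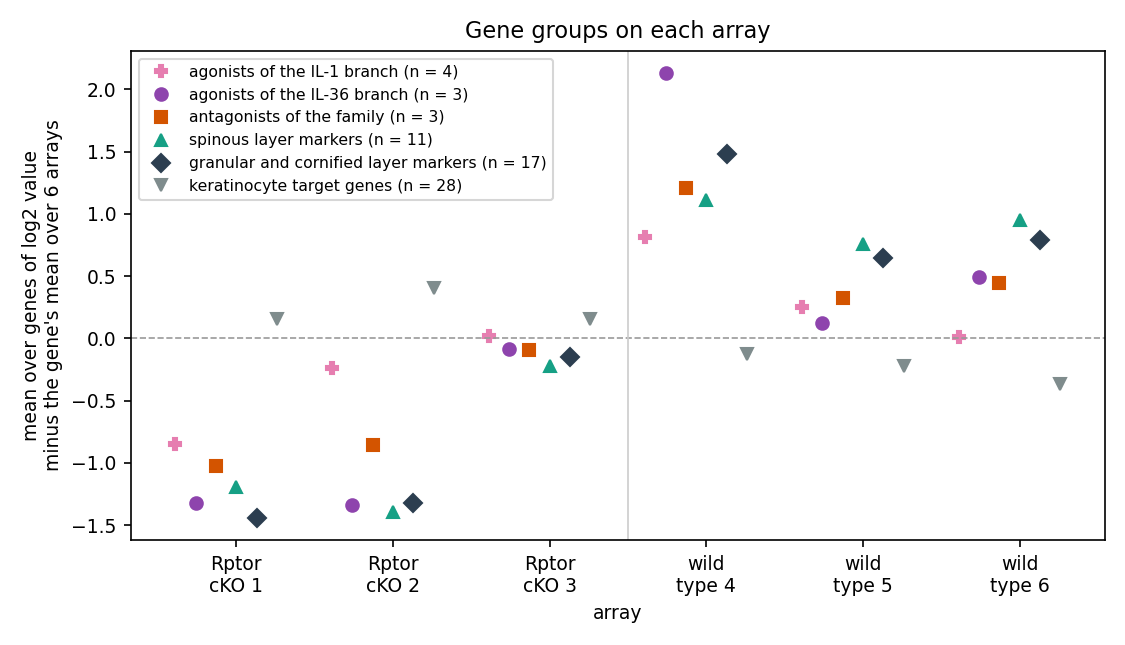
Mean over the genes of a group of the log2 value minus the gene's own mean over 6 arrays, for each array, Rptor cKO left and wild type right. IL-36 agonists, family antagonists and markers of the spinous, granular and cornified layers all lie below 0 on the Rptor cKO arrays and above 0 on the wild-type arrays, and the 28 keratinocyte target genes lie the other way; the IL-1 branch agonists overlap between the groups, with Rptor cKO array 3 at 0.02 and wild-type array 6 at 0.01.

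For each family gene that passed the test, the 3 genes with the most similar centred profile over the 6 arrays were listed, by root mean square difference in log2 units. They were Tmprss11f (0.089), Slurp2 (0.32) and Slc46a2 (0.33) for Il1f8, and Ivl (0.14), Tmem95 (0.14) and Krt78 (0.15) for Il1f5. Ivl encodes involucrin, a protein of the cornified envelope, and Krt78 a keratin. For Il18 they were Tubb2a (0.091), Klk13 (0.12) and Blnk (0.14), and for Il1rn they were Gltp (0.072), Myo5b (0.095) and Tom1 (0.099). Those of Il33 were Spink12 (0.098), Capsl (0.13) and AU018091 (0.14). Among the family itself, Il18 and Il1f5, on different chromosomes, were the closest pair (0.23), followed by Il1rn and Il1f10 (0.24).

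Of the genes that flank the family on chromosome 2, Psd4, which lies next to Il1rn and encodes an exchange factor for ARF6, fell. It read 5.59, 5.62 and 6.11 in Rptor cKO, against 7.49, 6.90 and 6.86 in wild type, a difference of -1.31 (SE 0.20, adjusted p = 0.00729). Pax8 beyond it (0.09) and Tbpl2 on the far side of Il1f8 (0.10) did not pass the test, with adjusted p of 0.619 and 0.627, and Tbpl2 was dimmer than the negative controls throughout, at 2.71 to 2.96 in Rptor cKO and 2.64 to 2.83 in wild type. Next to Il1a, Ckap2l differed by 0.37 (adjusted p = 0.111) and Slc20a1 by 0.16 (adjusted p = 0.489).

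Among 8 measured receptor and decoy genes, 2 fell, 1 rose and 5 did not pass, with a median of -0.18. For this and the later lists, the shares over all genes were 5.96% lower and 3.64% higher. The lists were chosen with earlier results of these data known. Il1r2, the decoy receptor that traps IL-1, read 5.02, 5.05 and 5.93 in Rptor cKO, against 7.41, 6.88 and 6.29 in wild type. It fell by 1.53 (SE 0.32, adjusted p = 0.0209). Il1rap, the shared signalling chain, fell by 0.55 (SE 0.10, adjusted p = 0.0119). Il1r1, the signalling IL-1 receptor, rose by 0.36 (SE 0.09, adjusted p = 0.0497), a call lost in 12 of 16 alternative settings, and without Rptor cKO array 2 none of the 8 passed. Il1rl2, the IL-36 receptor, chosen after its values were seen, read 7.25, 6.93 and 7.23 in Rptor cKO, against 7.47, 7.42 and 7.63 in wild type and did not pass (-0.37, SE 0.12, adjusted p = 0.0901). Both IL-18 receptor genes, Il18r1 and Il18rap, were dimmer than the negative controls on each of the 6 arrays.

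Of 22 genes measured that activate or release the cytokines, 8 fell, 1 rose and 13 did not pass, with a median of -0.06. Casp1, the protease of IL-1 beta and IL-18, read 3.49, 3.29 and 4.00 in Rptor cKO, against 6.78, 5.15 and 6.27 in wild type. It fell by 2.48 (SE 0.37, adjusted p = 0.00693), with 2 Rptor cKO arrays under the negative control median. Pycard, the inflammasome adaptor ASC, read 6.45, 6.76 and 7.62 in Rptor cKO, against 8.35, 8.57 and 8.69 in wild type, and fell by 1.59 (SE 0.27, adjusted p = 0.00972). Nlrp10, a NOD-like receptor family member, fell by 2.30 (SE 0.35) with 2 Rptor cKO arrays under the negative control median, and Gsdmc, a gasdermin, fell by 2.36 (SE 0.41). The sensors Nlrp1a, Nlrp1b, Nlrp3, Nlrc4 and Aim2 did not pass, but Nlrp1a, Nlrp3 and Nlrc4 were dimmer than the negative controls on each array, and Nlrp1b on 1 array of each group, so that little can be read from them. Aim2 differed by 0.13 (SE 0.15). Capn2, a calpain, a protease class that cuts the precursor of IL-1 alpha, rose by 1.56 (SE 0.13, adjusted p = 0.00102). Capn1, the other calpain on the list, named with its values known, fell by 0.70 (SE 0.12, adjusted p = 0.0117). Without Rptor cKO array 2, 3 of these genes fell and 1 rose.

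Downstream of the receptors, 5 of 24 measured adaptor, kinase and NF-kB genes fell, 2 rose and 17 did not pass, with a median of -0.10. Traf6, the ubiquitin ligase that links the IRAK kinases to NF-kB, read 5.81, 5.42 and 6.00 in Rptor cKO, against 8.39, 7.06 and 7.49 in wild type. It fell by 1.91 (SE 0.31, adjusted p = 0.00890). Irak2, one of the IRAK kinases, fell by 1.5 (SE 0.21), Peli1, a ubiquitin ligase, by 0.88 (SE 0.15) and Tab3, a partner of the kinase TAK1, by 0.49 (SE 0.11). Nfkb2 and Relb of the non-canonical NF-kB branch rose by 0.70 (SE 0.17) and 0.59 (SE 0.15), and neither passed with array medians subtracted. Each of these 2 calls was lost in 10 of 16 alternative settings. Without Rptor cKO array 2, 2 fell and none rose.

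Of 28 measured genes that IL-1 or IL-36 induces in keratinocytes, 7 rose, 1 fell and 20 did not pass, with a median of 0.37. Among the 28, 5 (Il6, Il19, Il20, Tslp and Defb4) were dimmer than the negative controls on each array. S100a8, Csf2 and Cxcl5 were so on 2 Rptor cKO and 3 wild-type arrays. Little can be read from these dim genes. Ccl20, the chemokine that draws CCR6-bearing leukocytes, read 6.03, 6.93 and 6.12 in Rptor cKO, against 4.16, 4.12 and 4.09 in wild type. It rose 4.72-fold (2.24, SE 0.21, adjusted p = 0.00148). Il23a, a subunit of IL-23, read 5.60, 6.32 and 6.14 in Rptor cKO, against 4.72, 4.94 and 4.85 in wild type, and rose 2.27-fold (1.18, SE 0.18, adjusted p = 0.00670). Ptgs2, the inducible cyclooxygenase, rose 2.23-fold (1.15, SE 0.20). Tslp, an epithelial cytokine, passed the test as higher (0.69, SE 0.11) but was dimmer than the negative controls on each array. With dim values set to the negative control median, its difference was 0.09 (adjusted p = 0.516), and the call was lost. Stfa1, a cysteine protease inhibitor, fell by 1.23 (SE 0.19). Outside the naming rule and picked with the values known, Tnf rose by 1.25 (SE 0.25) and Cxcl1 by 1.11 (SE 0.24), and the antimicrobial genes S100a9 (1.06, SE 0.30, adjusted p = 0.0648) and Lcn2 (0.10, SE 0.11) did not pass. Without Rptor cKO array 2, 4 rose and 1 fell. These genes have other inducers as well, and the part of IL-1 or IL-36 in their values was not tested.

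**Figure D4:**
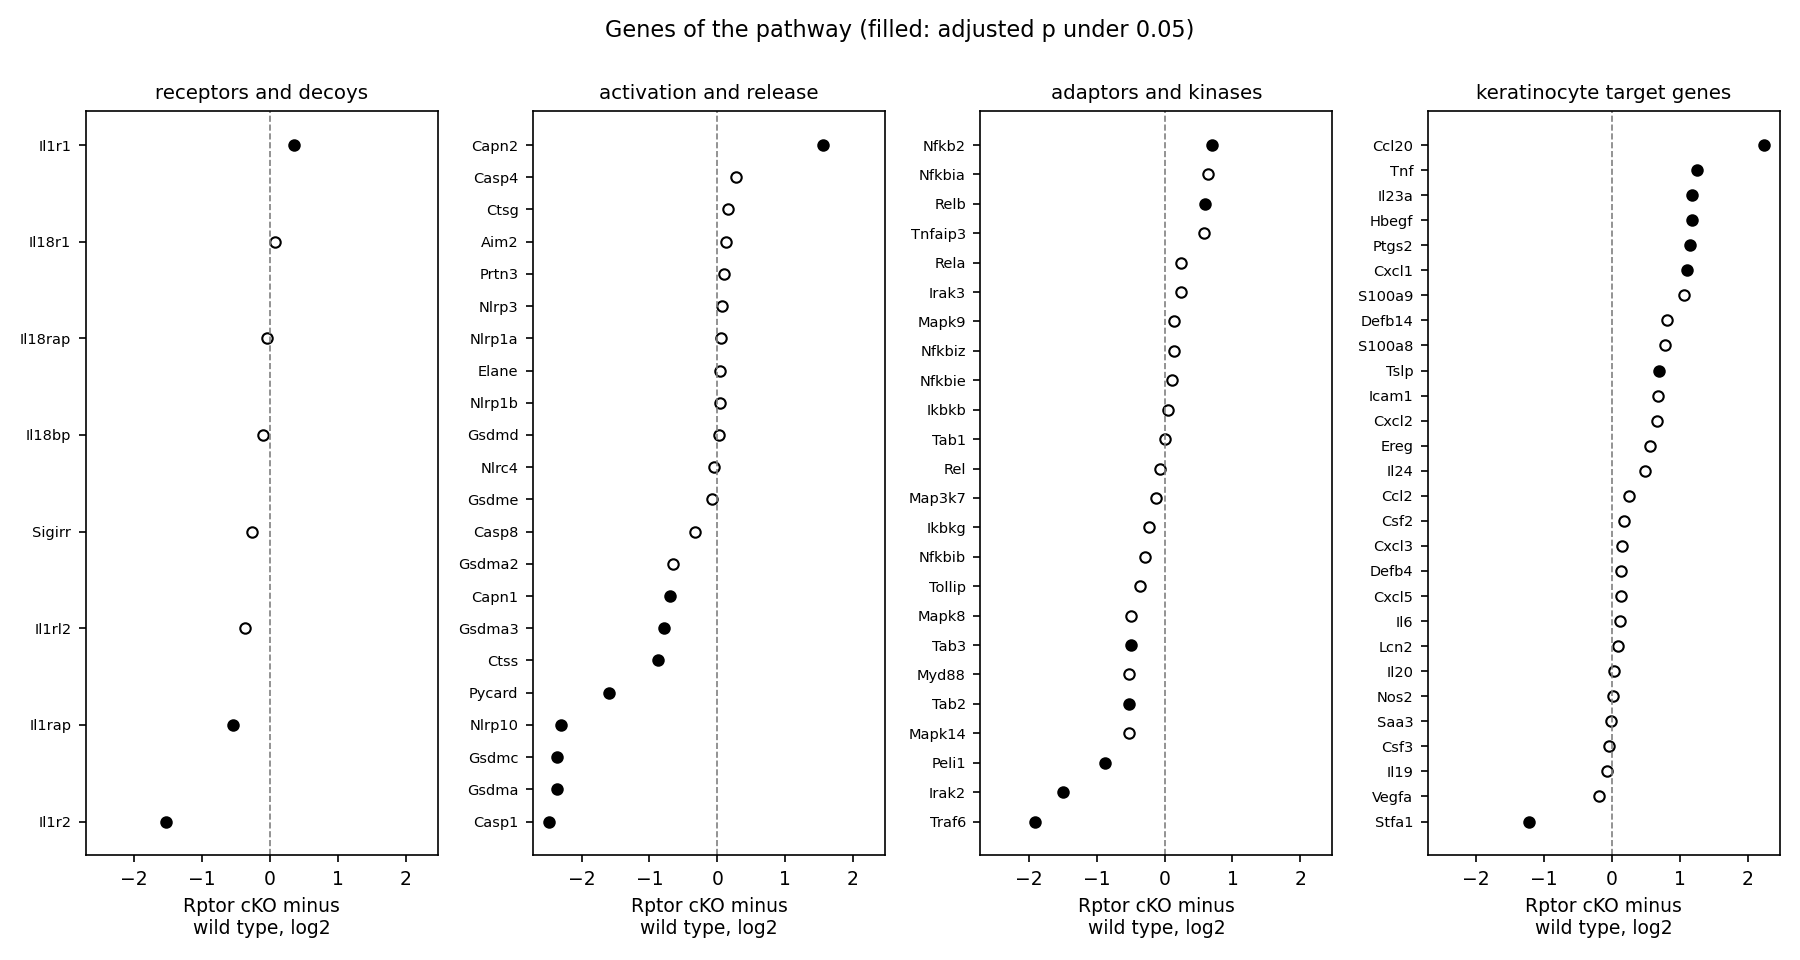
Log2 difference (Rptor cKO minus wild type) of each measured gene among 8 receptors and decoys, 22 genes of activation and release, 24 adaptors and kinases and 28 keratinocyte target genes; filled points have an adjusted p under 0.05. Filled points lie mostly left of 0 in the activation panel, with Casp1 at -2.48, and mostly right of 0 in the target panel, with Ccl20 at 2.24.

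Other cells of a sheet can make or answer these cytokines, and their markers were read on the same arrays. Of 5 leukocyte markers, 2 fell (Ptprc and Lcp1) and none rose, with a log2 summed level of 7.19 to 7.61 in Rptor cKO and 7.74 to 7.96 in wild type. Ptprc was dim, under the negative control median on 3 Rptor cKO arrays and 1 wild-type array. Of 14 Langerhans cell and macrophage markers, 3 fell and none rose (9.31 to 9.67 in Rptor cKO, 9.70 to 9.82 in wild type), and Cd207 of Langerhans cells differed by 0.12 (adjusted p = 0.594). Their sum includes the bright gene Epcam, which is also among the keratinocyte markers. Epcam averaged 7.67 in Rptor cKO and 7.40 in wild type (adjusted p = 0.162). Of 6 T cell markers, 1 fell (7.15 to 7.22 in Rptor cKO, 7.25 to 7.40 in wild type), and of 8 neutrophil markers none passed (7.35 to 7.5 in Rptor cKO, 7.33 to 7.44 in wild type), with Ngp dimmer than the negative controls throughout. Of 6 mast cell markers, 2 rose (Kit and Tpsb2) and none fell (8.31 to 8.92 in Rptor cKO, 7.70 to 7.82 in wild type). Kit was the brightest of them on every array, at 7.45 to 7.65 in Rptor cKO and 6.69 to 7.19 in wild type. Kit thus weighs most in these sums. Cpa3 and Mcpt4 each lay under the negative control median on 2 wild-type arrays, and Ms4a2 was under it throughout. Fibroblast markers, 4 of 7 higher, summed to 9.5 to 9.89 in Rptor cKO and 8.80 to 8.92 in wild type. Of 7 endothelial markers 2 rose (7.10 to 7.27 in Rptor cKO, 6.69 to 6.95 in wild type), and Kdr, Tek and Emcn were dimmer than the negative controls throughout. None of 6 melanocyte markers (10.32 to 10.96 in Rptor cKO, 9.80 to 10.51 in wild type) or 7 muscle markers (8.52 to 9.10 in Rptor cKO, 8.05 to 8.60 in wild type) passed. The part of these cells in the cytokine values was not tested.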

How the data were processed

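Biotin-labelled RNA of 6 epidermal sheets was measured on 1 array each. The authors deposited log2 signals, made with RMA and Partek and tied to mm10, per the submitters' processing notes, which as used here give no tool version. RMA draws the probe signals of the arrays to one distribution, which hides a change in total RNA per cell, and small differences at dim signals come out smaller still. The deposited probe set values were not on one distribution, with array medians from 4.06 to 4.21.

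Of 65956 probe sets that are no controls, 30604 named 1 gene, 2146 several and 33206 none by the platform's annotation. Symbols were updated by Entrez ID or synonym (1135 changed), and the 30063 genes were taken each by its probe set with the highest mean. Probe sets with several symbols were not used; Il1rl1, Irak1, Irak4, Chuk, Nfkb1 and some cell type markers had no single-symbol probe set under these names.

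limma 3.58.1 (R 4.3.3; lmFit, then eBayes) compared the groups with no covariate, two-sided, with Benjamini-Hochberg adjustment over 30063 genes and a threshold of 0.05. SE is moderated (4.31 prior degrees of freedom) and SD is over 3 arrays. The number of arrays limits the precision. Ratios of gene pairs were tested by exact permutation in scipy 1.17.1. The 16 alternatives cover scaling, dim genes, the variance model, probe set choice, embryo sex and each array left out.

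The family genes and gene lists were chosen with earlier results of these data known, and the lists were written from general knowledge. Named were all family genes, Rptor, flanking genes, up to 4 called genes per list and direction with the smallest p, and the 3 nearest profiles, without predicted genes, RIKEN clones and small RNA. The test was first tried on simulated data with known changes and independent noise for each gene. It recovered 26.4% of changes of 0.5 log2 units, 78.8% of 1, 94.8% of 1.5 and 96.8% of 2. Of its calls there, 4.5% were false. Such noise lacks the order of arrays that the family genes had in common, so these rates need not hold for the real arrays.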

Additional observations from a re-analysis of the deposited data

How the results depend on the processing

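No paired analysis was possible because the replicate numbers 1 to 3 and 4 to 6 are not shared between the groups. The family held 4 lower genes and 1 higher gene as reported. The 4 lower genes were again called with array medians subtracted and with quantile normalization. Values raised to the negative control median gave 7 lower genes. Averaging probe sets could not change the family values, since each family gene had 1 probe set, so this setting was no separate check for them. With no moderation, 0 were lower and 0 higher, and 8 of all genes were called in place of 2886. With embryo sex as an added term the counts were 0 lower, 0 higher and 643 of all genes, and with arrays of male embryos alone 3 lower, 0 higher and 867; both compare Rptor cKO array 2 alone with wild type, and the lone sample was taken to vary like the others. Leaving out 1 array gave 0 to 5 lower and 0 to 1 higher genes, and 900 to 2444 called genes: 2 lower without Rptor cKO array 1 (1854 called), 0 without Rptor cKO array 2 (900 called) and 1, Il1f8, without wild-type array 6. The Il33 rise was lost in 10 of the 15 alternatives that tested it, among them those without Rptor cKO array 2, Rptor cKO array 3, wild-type array 5 or wild-type array 6. The one rise, Il33, was lost (0 higher) with array medians subtracted, with quantile normalization, with dim genes left out, which drops the gene from the test, and with values raised to the negative control median; its adjusted p ran from 0.0233 to 0.314 over the alternatives. The adjusted p of Il1f8 ran from 0.00109 to 0.174 and its difference from -4.20 to -2.93. Il1f6 ran from -0.84 to 0.20 with 1 array left out and changed sign without wild-type array 4 (0.20, adjusted p = 0.799), and the other 9 genes kept their direction in every alternative they were tested in. That the 8 genes without overlap keep their sign when 1 array is left out follows from the absence of overlap. The cause of the other changes was not tested.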
